A study of Mus musculus with 6 samples.

Results

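The genes described here are 10 members of the eIF2 arm of the stress response in mouse tumours: 3 eIF2 kinases (Eif2ak2, Eif2ak3 and Eif2ak4), the phosphatase subunit gene Ppp1r15a, the transcription factor gene Atf4 and 5 genes known as its downstream targets (Ddit3, Trib3, Chac1, Asns and Psat1). They were chosen by symbol from a table of 28368 genes, with earlier results of these data known, and each symbol had 1 row. All 10 passed the filter on low counts, which left 18049 genes. Polyadenylated RNA from whole tumours was sequenced in 3 treated libraries, from mice under MS-DF-MS therapy with a time of 12 h, and in 3 control libraries from untreated mice. By the series title, implanted depots release STING agonists and apoptosis inducers in sequence. The labels used here name no strain, age, tumour line or drug, and in the absence of a group with an empty implant, what the drugs did and what the implant did cannot be told apart. Whether each library came from a separate mouse is not stated, and p-values measure the spread between these libraries, which may be technical in part.

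The integrated stress response starts when a kinase phosphorylates the alpha subunit of eIF2, the factor that brings the initiator tRNA to the ribosome. PKR (Eif2ak2) responds to double-stranded RNA, PERK (Eif2ak3) to unfolded protein in the endoplasmic reticulum, GCN2 (Eif2ak4) to lack of amino acids and HRI (Eif2ak1) to lack of haem and to mitochondrial stress. Phosphorylated eIF2 blocks its exchange factor eIF2B, so most translation falls while that of the Atf4 mRNA rises. ATF4 then drives genes of amino acid supply and, with CHOP, of cell death, and GADD34 (Ppp1r15a) leads a phosphatase back to eIF2. Kinase activity and ATF4 production are controlled on proteins, and mRNA levels measure neither. In tumours the same pathway is known for its part in the response to hypoxia and to scarce amino acids.

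The libraries held 57017043 to 66634551 counts. The first principal component, with 28.4% of the variance, placed treated 3 at 72.9 and the remaining 5 libraries between -37.9 and 13.3. The 7 pigment cell markers were abundant everywhere, with a summed level, in counts scaled to library size (CPM), of 21636 to 23503 in treated and 21010 to 23200 CPM in control libraries, and 0 of 7 passed the test. Of 7 endothelial markers 4 rose, beside 1.36% of all tested genes, and 1 had a negative log2 fold change (-0.49). The sum of the 7 was 149.2 to 161.2 CPM in treated and 93.0 to 116.9 CPM in control libraries. Neutrophil markers summed to 54.4, 16.3 and 5.36 CPM in treated 1, 2 and 3 and to 3.07 to 4.77 CPM in controls, and red cell genes to 262.0 to 1471 against 98.0 to 249.6 CPM, with none of 6 and of 5 tested called. Keratinocyte genes summed to 82.4 CPM in treated 1 and to 0 to 0.140 CPM in the others. Macrophage markers (60.3 to 206.3 against 133.9 to 184.8 CPM), T cell markers (10.7 to 14.9 against 13.8 to 15.4), fibroblast markers (359.2 to 407.4 against 235.4 to 385.9) and muscle genes (2.60 to 102.5 against 22.1 to 53.0) had no call. No marker was at 0 in all libraries, and Ly6g, Cxcr2, Retnlg, Cd3e, Myh4, Tnnt3 and the 5 keratinocyte genes were at 0 in some. The part of these cell types in the results below was not tested, and in whole tumours fewer cells of a type cannot be told apart from less RNA per cell.

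Promoter sequence was read for the 10 members from RefSeq windows (GRCm38.p6) of 250 bases before to 50 bases after each start, and all 10 matched. Both strands were searched for TGATGNAA, the core of the composite element bound by C/EBP and ATF factors, and for GAAA, any 2 bases and GAAA again, the core of the interferon-stimulated response element (ISRE); these motifs do not overlap in the windows shown. The first is held by 3.97% of all 32851 windows and the second by 3.44%. All matches in the members are shown: 3 of 10 hold the composite core and 2 of 10 the ISRE core. These are counts of genes, not of windows: the 10 members had 12 windows, and a match in any of them counted. The 2 members that rose, Eif2ak2 and Asns, each hold a different one of them. Ppp1r15a, Chac1 and Trib3 also hold a match and did not pass the test. Capitals mark the match, and all stretches run 5′ to 3′ on the gene's strand.
Eif2ak2, ISRE core from 18 bases after the start, chr17:78882545-78882622, minus strand: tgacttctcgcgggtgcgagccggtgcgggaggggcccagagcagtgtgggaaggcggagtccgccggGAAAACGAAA
Ppp1r15a, ISRE core from 220 bases before the start, chr7:45526449-45526508, minus strand: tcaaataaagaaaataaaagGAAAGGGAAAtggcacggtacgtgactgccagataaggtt
Asns, composite core from 23 bases before the start, chr6:7693225-7693304, minus strand: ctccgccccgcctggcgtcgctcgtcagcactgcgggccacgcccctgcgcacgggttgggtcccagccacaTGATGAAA
Chac1, composite core on the opposite strand from 193 bases before the start, chr2:119351022-119351081, plus strand: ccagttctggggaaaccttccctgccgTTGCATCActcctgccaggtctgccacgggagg
Trib3, composite core on the opposite strand from 14 bases after the start, chr2:152344036-152344115, minus strand: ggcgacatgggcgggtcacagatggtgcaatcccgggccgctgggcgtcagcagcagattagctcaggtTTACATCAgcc

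In GENCODE M21, whose gene spans equal those of the deposited table for all 10 members, the Eif2ak2 and Asns matches lie in an exon and the other 3 lie outside exons. The windows of Eif2ak3, Eif2ak4, Atf4, Ddit3 and Psat1 hold neither set of letters. Among tested genes with a window, 458 of 11960 (3.83%) hold the ISRE core, and among the genes that rose 47 of 185 (25.4%) do. For the composite core these shares were 341 of 11960 (2.85%) and 8 of 185 (4.32%). A match describes letters in a window and shows no binding.

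Treated tumours were compared with untreated ones to ask which components of the pathway changed in mRNA level. Of the 10 members, Eif2ak2 and Asns rose, none fell, and 8 did not pass edgeR's quasi-likelihood test at a Benjamini-Hochberg adjusted p under 0.05 over all genes tested. In the same test 246 of 18049 genes rose (1.36%) and 45 fell (0.249%), 1.61% in either direction. The members' median log2 fold change was 0.03, against -0.00 for all genes, with 5 members above 0 and 5 below. The groups of libraries did not overlap for 3 members, Eif2ak2 and Asns (higher, as 12% of all tested genes were) and Atf4 (lower, as 11.2% were), 23.3% in either direction. The same 3 members had an unadjusted p under 0.05, as had 16% of all genes. Of genes changed 1.5-fold in simulated data of this design, 14 of 50 were recovered. They were drawn at random from all genes that passed the filter, whatever their counts, so this share may not hold for the members. The intervals given below show how large a change of each other member could have been missed.

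**Figure D1:**
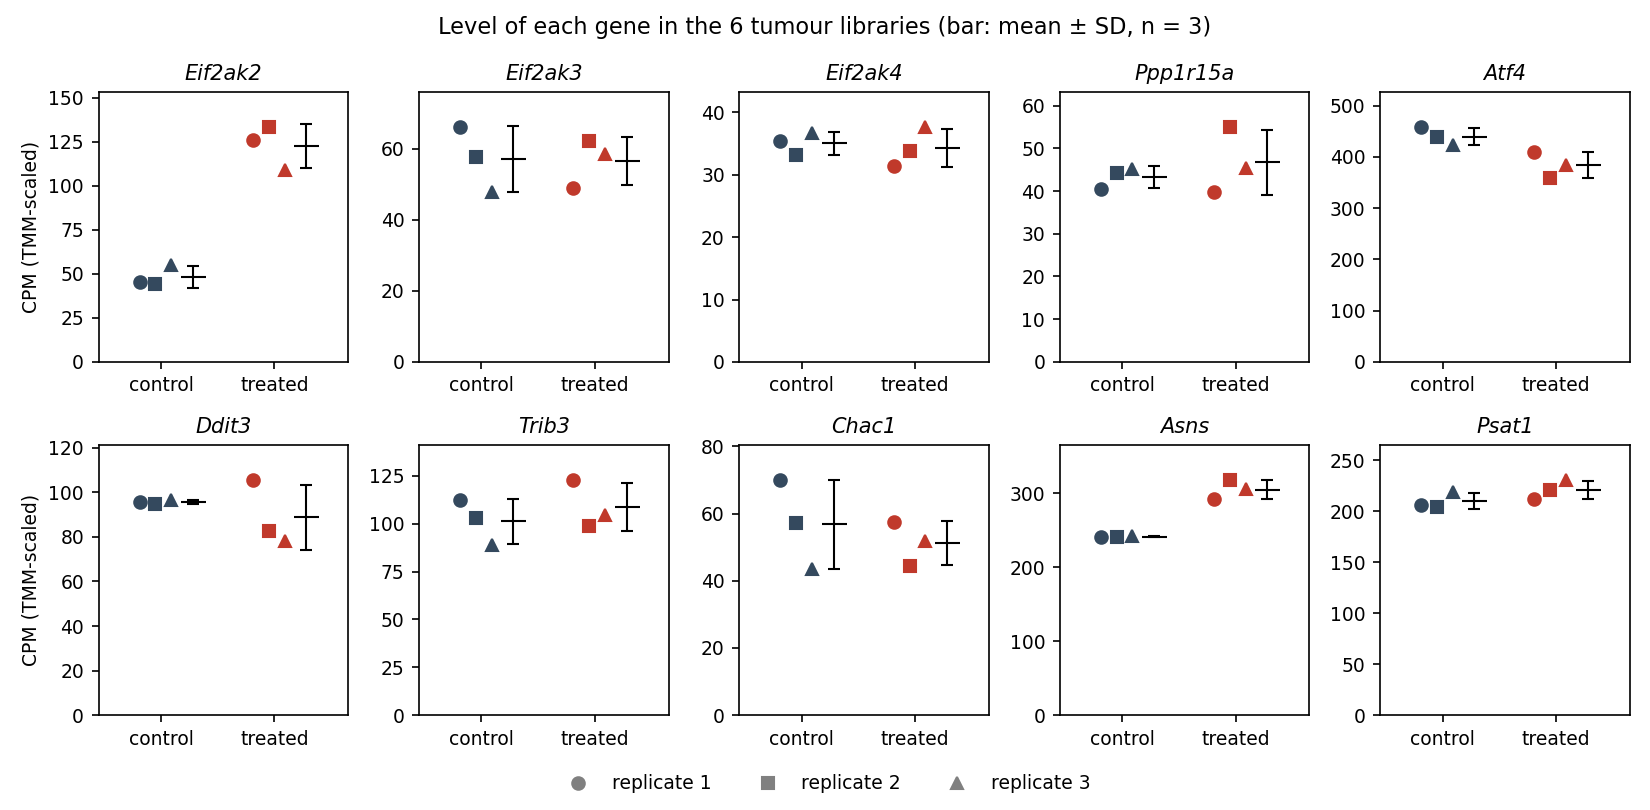
TMM-scaled CPM of each of the 10 genes (vertical axis, from 0, 1 scale per panel) in the 3 control and 3 treated libraries, with symbols for the replicate number and a bar for mean ± SD (n = 3). Eif2ak2 and Asns sit higher and Atf4 lower in all 3 treated libraries, and the other 7 genes overlap.

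Among the kinases, the PKR gene changed and the genes of PERK, GCN2 and HRI did not pass the test. Eif2ak2 (ENSMUSG00000024079, chromosome 17, 78852564 to 78882573, minus strand) stood at 125.7, 133.2 and 108.8 CPM in treated 1, 2 and 3 and at 45.4, 44.0 and 55.1 CPM in control 1, 2 and 3. The lowest treated library was thus well above the highest control. The rise was 2.55-fold (95% interval 2.13 to 3.04; 1.35 on the log2 scale with an SE of 0.11, n = 3, edgeR adjusted p = 0.000887), the 45th smallest p of all genes. It kept its call in all 12 alternatives, with log2 fold changes from 1.29 to 1.46 and adjusted p up to 0.0159. Without treated 3, which stands apart on the first principal component, it was 1.43 (edgeR adjusted p = 0.000785). Without treated 1, which had the lowest sample weight in limma-voom (0.444), it was 1.33 (edgeR adjusted p = 0.00386). Control 2 had the highest weight (3.80), and the remaining libraries had 0.717 to 1.12.

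Eif2ak3 (ENSMUSG00000031668, chromosome 6, 70844515 to 70905245) stood at 48.8, 62.1 and 58.5 CPM in treated and 66.0, 57.5 and 47.7 CPM in control libraries. The groups covered nearly the same range. It differed by -0.01 ± 0.13 on the log2 scale (edgeR adjusted p = 0.974), with an interval from 0.799-fold to 1.23-fold. Eif2ak4 (ENSMUSG00000005102, chromosome 2, 118388618 to 118475234) stood at 31.5, 33.8 and 37.6 CPM in treated and 35.4, 33.1 and 36.7 CPM in control libraries, again overlapping. Its log2 fold change was -0.03 ± 0.09 (edgeR adjusted p = 0.911) and its interval 0.848-fold to 1.13-fold. Both signs turned positive without treated 1, at 0.08 and 0.03. Eif2ak1, the fourth kinase gene and not a member, stood at 80.9 to 83.8 CPM in treated and 76.9 to 87.0 CPM in control libraries (0.03 ± 0.07, edgeR adjusted p = 0.877), and its span overlaps Aimp2 on the other strand.

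The change of Eif2ak2 was also set against that of the other kinases within each library. The log2 ratio of Eif2ak2 to the mean of Eif2ak1, Eif2ak3 and Eif2ak4 was 1.32, 1.25 and 0.95 in treated 1, 2 and 3 and -0.31, -0.27 and 0.05 in control 1, 2 and 3. The groups did not overlap and differed by 1.35 on the log2 scale, or 2.55-fold. The two-sided exact permutation p was 0.1, the smallest that 3 against 3 libraries allow, so this design cannot pass 0.05 by that test. The difference ran from 1.28 to 1.47 with each library left out in turn.

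Per length, the kinases changed places. In the authors' FPKM values, which allow levels of different genes to be compared, Eif2ak2 averaged 8.35 ± 1.05 FPKM in controls (SD, n = 3), beside 8.39 ± 1.35 for Eif2ak3, 12.7 ± 0.837 for Eif2ak1 and 4.16 ± 0.218 for Eif2ak4. In treated tumours Eif2ak2 averaged 21.1 ± 1.94 FPKM, above Eif2ak1 at 12.9 ± 0.199, Eif2ak3 at 8.26 ± 0.920 and Eif2ak4 at 4.06 ± 0.384. It overlapped Eif2ak3 in the controls and exceeded every value of the other 3 kinases in the treated libraries.

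Eif2ak2 is known as an interferon-stimulated gene, and 10 genes of that response were used for scale. All 10 rose, with log2 fold changes from 1.14 to 4.20 and a median of 3.48, so the 1.35 of Eif2ak2 lies near the low end. Relative to the control mean, Eif2ak2 was 1.39, 1.47 and 1.18 higher on the log2 scale in treated 1, 2 and 3, and the median of the 10 genes was 3.55, 3.59 and 3.04 higher. Treated 2 was highest and treated 3 lowest in both. Isg15, a ubiquitin-like modifier and the most abundant per length, rose 10.3-fold (edgeR adjusted p = 0.000305). Usp18, which restrains interferon signalling, rose 18.4-fold (0.000305), Ifit3 12.3-fold (0.000305), Mx1 12.1-fold (0.000348), Ifit1 16.5-fold (0.000348) and Irf7 12.4-fold (edgeR adjusted p = 0.00036).

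The 5 genes with the most similar pattern to Eif2ak2 over the 6 libraries, by Pearson r of log2 CPM among 12396 genes with a mean of at least 1, all had r of at least 0.997. They were Sap130 (log2 fold change 0.27 ± 0.06, edgeR adjusted p = 0.0882), Trim12c (2.70 ± 0.22, 0.000829), the helicase gene Ddx60 (2.75 ± 0.23, 0.000931), the endothelial cadherin gene Cdh5 (1.11 ± 0.12, 0.00295), one of the endothelial markers above, and Angptl4 (1.13 ± 0.15, edgeR adjusted p = 0.0103). The r ignores the size of the change, and over 6 libraries in 2 groups many genes come close to it.

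**Figure D2:**
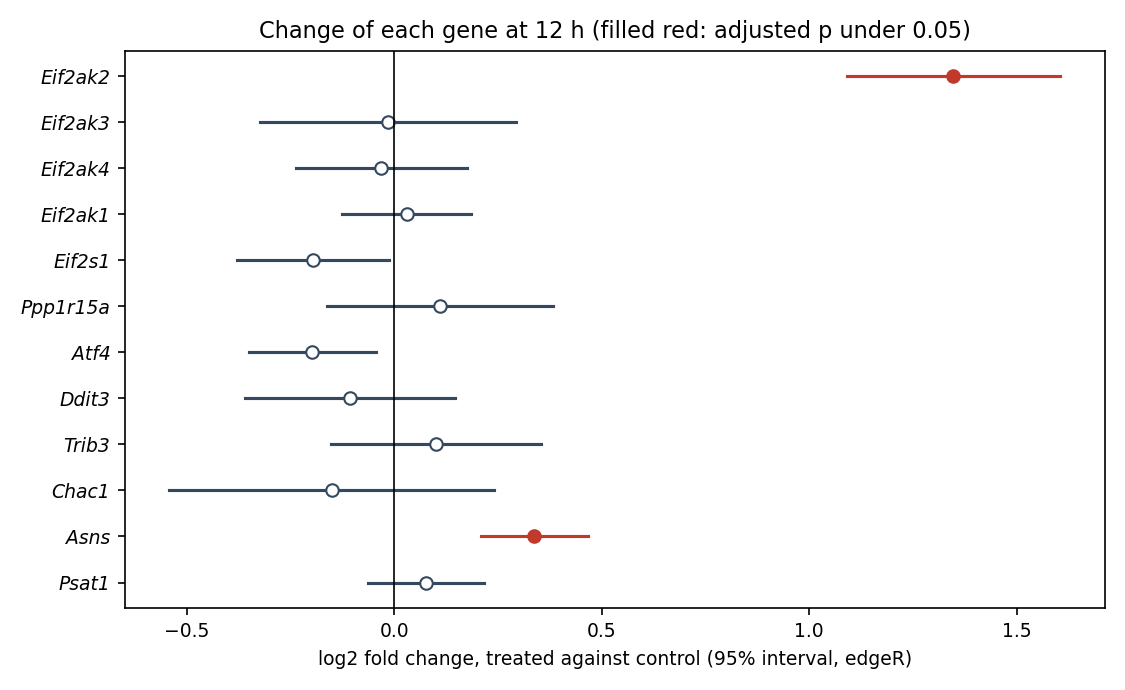
Log2 fold change of treated against control tumours with its 95% interval from edgeR (horizontal axis) for the 10 members, the kinase gene Eif2ak1 and the substrate gene Eif2s1, with red filled points for an adjusted p under 0.05. Eif2ak2 at 1.35 and Asns at 0.34 are the 2 called genes, and the intervals of Atf4 and Eif2s1 lie below 0 although neither passed after adjustment.

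The gene of the substrate gave a small difference, and of the exchange factor genes only Eif2b3, described below, passed the test. Eif2s1, which encodes the phosphorylated alpha subunit, stood at 204.3, 219.8 and 213.8 CPM in treated and 225.2, 235.2 and 270.3 CPM in control libraries. All treated values lay below all controls, but the log2 fold change of -0.20 ± 0.08 did not pass (edgeR adjusted p = 0.284). The list of eIF2, eIF2B, the phosphatases and the kinases' regulators held 22 genes, with Eif2s1 and Eif2ak1 among them. Of these 1 rose, 1 fell and 20 did not pass, with a median of -0.02. Of all tested genes 1.36% rose and 0.249% fell. An unadjusted p under 0.05 was found for 4 of the 22, beside 16% of all tested genes. All treated libraries lay below all controls for 7 (11.2% of all tested genes) and above for 2 (12%). Adar, which edits double-stranded RNA and is known to restrain PKR, rose from 68.2, 76.5 and 77.9 CPM to 179.8, 179.0 and 158.3 CPM. Its log2 fold change was 1.22 ± 0.08 (2.32-fold, edgeR adjusted p = 0.000348), and it kept its call in all 12 alternatives. Like Eif2ak2, Adar is known to respond to interferon.

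Eif2b3, the gamma subunit of the exchange factor, stood at 23.2, 21.2 and 21.3 CPM in treated and 29.3, 30.2 and 30.4 CPM in control libraries. It fell by 0.45 on the log2 scale (SE 0.08, edgeR adjusted p = 0.0385). The call ended without each control (adjusted p = 0.111, 0.229 and 0.149 without control 1, 2 and 3), without treated 2 (0.142), without treated 3 (0.0923) and without a filter on low counts (edgeR adjusted p = 0.0619). Impact, an inhibitor of GCN2 activation, had -0.51 ± 0.16 (edgeR adjusted p = 0.185), with no overlap between the groups. Ppp1ca, a catalytic phosphatase subunit and the most abundant of the list per length, had -0.05 ± 0.05 (0.726).

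Ppp1r15a (ENSMUSG00000040435, chromosome 7, 45522916 to 45526268), the inducible phosphatase subunit GADD34 and a known ATF4 target, stood at 39.9, 55.0 and 45.5 CPM in treated and 40.5, 44.3 and 45.2 CPM in control libraries. Treated 2 was high, treated 1 lay just below and treated 3 just above the control range. The log2 fold change was 0.11 ± 0.12 (edgeR adjusted p = 0.713; interval 0.894-fold to 1.30-fold), and -0.02 without treated 2. The span overlaps Tulp2 on the other strand.

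Atf4 (ENSMUSG00000042406, chromosome 15, 80255184 to 80257541) had the highest level per length of the members, at 131.8 to 172.4 FPKM. It stood at 409.3, 358.5 and 383.4 CPM in treated and 458.1, 438.1 and 423.6 CPM in control libraries. Each treated library was thus below each control. The log2 fold change was -0.20 ± 0.07 (0.872-fold, interval 0.784 to 0.970, unadjusted p = 0.018, edgeR adjusted p = 0.21). That did not pass, and the adjusted p ran from 0.0541 to 0.476 over the 12 alternatives, with the same sign in each. The genes most like it over the 6 libraries, with Pearson r of at least 0.986, were Gm15726, A530017D24Rik, Stard9, Rab32 and the mTOR inhibitor gene Deptor. None of them passed the test (edgeR adjusted p from 0.0749 for Deptor to 0.333 for Gm15726).

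The stress effectors below ATF4 showed no common direction. Ddit3 (ENSMUSG00000025408, chromosome 10, 127290774 to 127296288) encodes CHOP, a factor linked to cell death. It stood at 105.3, 82.6 and 78.3 CPM in treated and 95.5, 94.8 and 96.5 CPM in control libraries. Treated 1 lay above the controls and treated 2 and 3 below them. The log2 fold change was -0.11 ± 0.11 (edgeR adjusted p = 0.70) and moved to -0.25 without treated 1 (lowest adjusted p over the alternatives 0.118). The span overlaps Mars1 on the other strand, which had 0.22 ± 0.08 (edgeR adjusted p = 0.23). Whether counting used strand is not given in the sources used here. GENCODE M21 also lists another gene named Ddit3 that overlaps this span on the same strand and has no row in the deposited table. Whether that entry affected the count was not tested.

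Trib3 (ENSMUSG00000032715, chromosome 2, 152337422 to 152344032), a pseudokinase gene induced by ATF4 and CHOP, stood at 122.7, 99.0 and 104.4 CPM in treated and 112.2, 102.8 and 89.02 CPM in control libraries. Its log2 fold change was 0.10 ± 0.11 (edgeR adjusted p = 0.723; interval 0.899-fold to 1.28-fold). Chac1 (ENSMUSG00000027313, chromosome 2, 119351229 to 119354381), which encodes an enzyme that degrades glutathione, stood at 57.4, 44.3 and 51.8 CPM in treated and 69.9, 57.1 and 43.4 CPM in control libraries. It had the widest interval of the members, 0.687-fold to 1.18-fold, around -0.15 ± 0.17 on the log2 scale (edgeR adjusted p = 0.732), a value that became 0.03 without control 1. In Eif2ak3, Atf4, Trib3 and Chac1 control 1 was the highest and control 3 the lowest of the controls, and in Atf4, Ddit3, Trib3 and Chac1 treated 1 was the highest treated library. Treated 1 is also the library with the highest red cell, neutrophil and keratinocyte sums, and the part of these in the values was not tested.

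Of the members that serve amino acid synthesis, Asns rose and Psat1 did not pass. Asns (ENSMUSG00000029752, chromosome 6, 7675169 to 7693254, minus strand) encodes asparagine synthetase. It stood at 291.3, 316.9 and 305.5 CPM in treated and at 240.7, 241.1 and 241.3 CPM in control libraries. The treated libraries lay above the controls, which were almost equal. The rise was 1.26-fold (interval 1.16 to 1.38; 0.34 on the log2 scale with an SE of 0.06, n = 3, edgeR adjusted p = 0.0287).

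The size of the Asns rise was steady and its call was not. The log2 fold change stayed between 0.31 and 0.37 in all 12 alternatives. The call ended without control 1, 2 and 3 (adjusted p = 0.111, 0.206 and 0.114), without treated 2 (0.111), without treated 3 (0.0643) and without a filter on low counts (edgeR adjusted p = 0.0549). It held without treated 1 (0.0200) and with RLE scaling, limma-voom with and without sample weights, and DESeq2. The SD of the controls, 0.287 CPM, is below the 1.97 CPM that counting error alone gives at this depth, so it understates the error of a single library.

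Psat1 (ENSMUSG00000024640, chromosome 19, 15904678 to 15947337), an enzyme gene of serine synthesis, stood at 211.7, 220.7 and 230.0 CPM in treated and 205.6, 204.4 and 218.5 CPM in control libraries. The groups overlapped, and the log2 fold change was 0.08 ± 0.06 (edgeR adjusted p = 0.605; interval 0.957-fold to 1.16-fold). GENCODE M21 holds a transcript of another gene, Gm12611, that matches Psat1 at 91.0% over 1056 bases, and whether reads of that copy were counted with it was not tested. Eif2ak2 has a match of 91.3% over 323 bases to Gm44189.

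**Figure D3:**
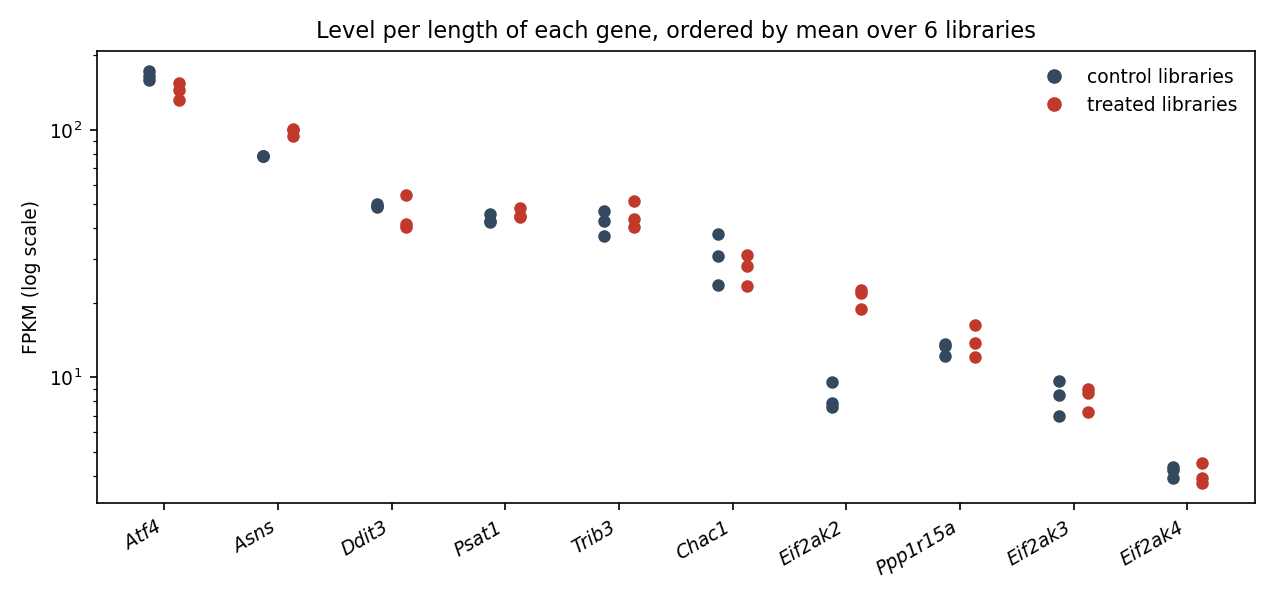
FPKM (vertical axis, log scale) of the 10 genes in the 3 control and 3 treated libraries, 1 point per library, ordered by the mean over 6 libraries. Atf4 lies highest at 131.8 to 172.4 FPKM and Eif2ak4 lowest at 3.75 to 4.49 FPKM, and Eif2ak2 is the gene whose groups lie farthest apart.

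Ordered by level per length over all 6 libraries, the members ran Atf4 (154.6 ± 14.5 FPKM, SD over 6 libraries), Asns (88.2 ± 11.2), Ddit3 (47.6 ± 5.35), Psat1 (44.7 ± 2.04), Trib3 (43.7 ± 4.97), Chac1 (29.2 ± 5.44), Eif2ak2 (14.7 ± 7.14), Ppp1r15a (13.6 ± 1.49), Eif2ak3 (8.33 ± 1.04) and Eif2ak4 (4.11 ± 0.285 FPKM). Neighbours whose library ranges overlapped were Ddit3 with Psat1, Psat1 with Trib3, Trib3 with Chac1, and Eif2ak2 with Ppp1r15a. The order of Ddit3 and Psat1, and of Psat1 and Trib3, varied between libraries, while Trib3 exceeded Chac1 in every library. Eif2ak2 lay below Ppp1r15a in each control (7.62 to 9.55 against 12.2 to 13.6 FPKM). In each treated library Eif2ak2 lay above Ppp1r15a (18.9 to 22.6 against 12.1 to 16.2 FPKM). The mRNA of Atf4 was abundant in untreated tumours, and the lowest count of any member in any library was 2057, for Eif2ak4.

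The other genes of amino acid supply known to follow ATF4 had no call. Of 11 enzymes of serine, one-carbon and proline synthesis, none passed, 9 had a positive log2 fold change, and the median was 0.13. An unadjusted p under 0.05 was found for 3 of them, beside 16% of all tested genes. Psph had 0.33 ± 0.09 (edgeR adjusted p = 0.121), Phgdh, the first enzyme of serine synthesis and the most abundant per length, 0.23 ± 0.07 (0.163), and Aldh18a1 0.21 ± 0.08 (0.24). In these 3 genes, which have the smallest p of the list, the treated libraries all lay above the controls. That held for 4 of the 11 genes and for 12% of all tested genes. Of 14 genes of aminoacyl-tRNA synthetases and tRNA export none passed, 10 had a positive log2 fold change, and the median was 0.08. An unadjusted p under 0.05 was found for 5 of the 14, beside 16% of all tested genes. All treated libraries lay above all controls for 6 (12% of all tested genes) and below for 2 (11.2%). Iars had 0.20 ± 0.06 (edgeR adjusted p = 0.168), Aars 0.22 ± 0.07 (0.191), Eprs -0.17 ± 0.06 (0.224) and Gars, the most abundant per length, 0.05 ± 0.06 (0.73).

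Amino acid transporters had no call either. None of 10 passed (3 at an unadjusted p under 0.05, beside 16% of all tested genes). Of the 10, 7 had a negative log2 fold change, and the median was -0.03. Slc7a5, the light chain of the main leucine transporter, had -0.26 ± 0.08 (edgeR adjusted p = 0.185), with treated libraries at 287.4 to 350.3 CPM and controls at 361.2 to 388.5 CPM. It passed as lower without treated 1 (edgeR adjusted p = 0.0392). Its partner Slc3a2 had -0.01 ± 0.07 (0.965), the glycine transporter gene Slc6a9 0.35 ± 0.12 (0.221) and the glutamine transporter gene Slc1a5 -0.15 ± 0.06 (0.295). Beside these counts of 0, DESeq2 and limma-voom with sample weights called 2 and 0 of the enzymes, 0 and 1 of the synthetases, and 1 and 1 of the transporters, and limma-voom without weights none.

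The stress and death genes known to be induced by ATF4 or CHOP held more calls. Of 24 listed, Stc2 and Adm2 had too few counts, and of the 22 tested 4 rose, none fell and 18 did not pass. Of all tested genes 1.36% rose. An unadjusted p under 0.05 was found for 11 of the 22, beside 16% of all tested genes. A positive log2 fold change was found for 16 of the 22. The median was 0.31 (relative to controls, 0.50 in treated 1, 0.35 in treated 2 and 0.25 in treated 3). DESeq2 and limma-voom with sample weights called 8 and 7 as higher. Ddit4, whose product REDD1 inhibits mTORC1, stood at 136.1, 152.2 and 170.5 CPM in treated and 87.4, 90.9 and 85.5 CPM in control libraries. It rose 1.74-fold (log2 fold change 0.80 ± 0.09, edgeR adjusted p = 0.00402) and kept its call in all 12 alternatives. Klhl24, a ubiquitin ligase adaptor gene, rose 1.51-fold (edgeR adjusted p = 0.0215), and its call ended without treated 2 (0.0926) and controls 2 and 3 (0.15 and 0.111). Trp53inp1, a p53-inducible gene, rose 1.73-fold (edgeR adjusted p = 0.0423), a call that ended with any library left out (0.0586 to 0.192) and without the filter on low counts (0.0935). So did that of Bcl2l11, which encodes the BH3-only protein BIM (1.53-fold, edgeR adjusted p = 0.049, then 0.0716 to 0.173 with a library left out, 0.0863 without the filter and 0.05002 with RLE scaling). Ddit4, Trp53inp1 and Bcl2l11 are also known targets of other stress regulators. Sqstm1, an autophagy receptor gene and the most abundant of the list per length, had 0.23 ± 0.09 (edgeR adjusted p = 0.26).

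The genes induced by the other branches of the unfolded protein response gave no call. Of 18 chaperone, XBP1 and ATF6 genes none passed (7 at an unadjusted p under 0.05, beside 16% of all tested genes). A negative log2 fold change was found for 14, and the median was -0.09. Hspa5, which encodes the chaperone BiP, stood at 1079 to 1164 CPM in treated and 1280 to 1374 CPM in control libraries (-0.23 ± 0.05, edgeR adjusted p = 0.0867). Hsp90b1 had -0.22 ± 0.04 (0.0618) and Pdia3 -0.16 ± 0.05 (0.177), also with no overlap between the groups. For 8 of the 18 genes all treated libraries lay below all controls, as for 11.2% of all tested genes. Hspa5 and Hsp90b1 passed as lower under DESeq2 and with sample weights, a fit in which control 2 had the highest weight (3.80).

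**Figure D4:**
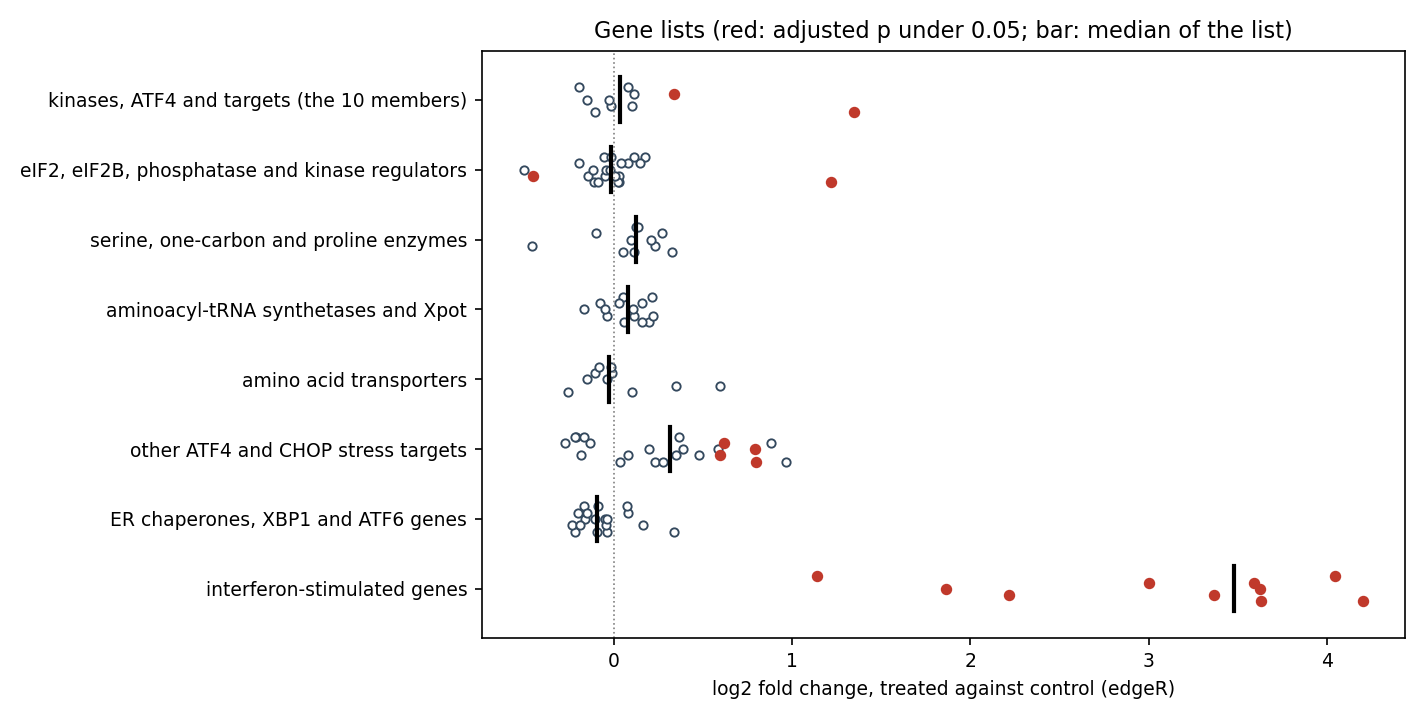
Log2 fold change of treated against control tumours (horizontal axis) for every tested gene of the 10 members and 7 gene lists, 1 point per gene, red for an adjusted p under 0.05, with a bar at each list's median. The medians of the members and of the first 4 pathway lists lie between -0.03 and 0.13, that of the ATF4 and CHOP stress targets at 0.31, and that of the interferon-stimulated genes at 3.48.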

How the data were processed

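Whole-tumour polyadenylated RNA from 3 treated and 3 control libraries was analysed, grouped by the titles in the labels. The authors deposited raw counts and FPKM per gene and library, per the file headers. FPKM was used only for levels between genes, and in 13090 genes its ratio to the count was constant to within 1% for 99.4 to 99.6% of genes. Per the labels' protocols the library marks strand. The tools fastp, StringTie and edgeR appear in the submitters' processing notes, with no role or version. For the aligner, build, annotation and strand setting, the entry is "not given in the sources used here". GENCODE M21 lists 99.7% of the identifiers, and 90.0% have the same span there.

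The deposited counts were fitted with edgeR 4.0.16 (R 4.3.3): filterByExpr (minimum count 10, minimum total 15), TMM, and glmQLFit and glmQLFTest on the group term, two-sided, with Benjamini-Hochberg adjustment over 18049 genes and a threshold of 0.05. The SE is the log2 fold change divided by the root of F, and intervals are 95% and unadjusted. CPM is TMM-scaled, and log2 CPM uses a prior count of 2. Each member had at least 2057 counts per library. Alternatives used RLE scaling, no filter, DESeq2 1.42.0, limma 3.58.1 (voom, with and without sample weights), a replicate block and each library left out. The fit was tested on simulated data of 17544 genes. At the same threshold, 14, 21, 32 and 46 of 50 genes changed 1.5-, 2-, 4- and 8-fold were recovered. In the same simulated data 19 genes with no set change were called, so a call near the threshold can be false.

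The members and lists were chosen with earlier results of these data known. Genes named are the members, Eif2ak1, Eif2s1, up to 6 called genes per list (or the 3 smallest p), its most abundant gene, and the 5 most similar to Eif2ak2 and Atf4. Genes mentioned for overlap are outside that rule. Near copies were sought by blastn among GENCODE transcripts (at least 90% identity over 300 bases), and Eif2ak2 and Psat1 each had 1. The search left out any gene with the member's own name, so it could not find the other Ddit3 entry.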

Additional observations from a re-analysis of the deposited data

How the results depend on the processing

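Eif2ak2 kept its call in all 12 alternatives, and its excess over the other kinases kept its sign in all 8 (1.28 to 1.47 with a library left out). Asns brought the number of members that rose to 2, which was 1 without the filter on low counts and with the replicate block, and 1 to 2 with a library left out. The number that fell was 0 throughout. Over all genes, 246 rose and 45 fell, against 754 and 367 by DESeq2, 601 and 191 by limma-voom with sample weights, and 164 and 10 without the filter. With a library left out, 94 to 308 rose and 3 to 39 fell. Over the 6 pathway lists without the interferon genes, 5 rose and 1 fell, against 11 and 5 by DESeq2, 9 and 4 with sample weights, 3 and 0 without the filter, and 2 to 4 and 0 to 2 with a library left out.

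With the replicate number as a block, 123 genes rose and 14 fell, 3 and 0 in the pathway lists, and Asns (edgeR adjusted p = 0.117), Eif2b3 (0.147), Klhl24 (0.0981) and Bcl2l11 (0.117) lost their calls. The labels do not say that the numbers pair samples. Deviations of same-numbered libraries had correlations of 0.0855, -0.164 and -0.107, and not every library correlated best with its own number. With 3 libraries per group these values cannot decide whether the numbers mark pairs or batches.

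Signs of uncalled genes turned as follows. Eif2ak3 was 0.015 with sample weights, and -0.12 to 0.11 with a library left out. Eif2ak4 was 0.028 with sample weights, and -0.10 to 0.029 with a library left out. Ppp1r15a ran from -0.017 to 0.21, Chac1 from -0.30 to 0.033 and Slc3a2 from -0.053 to 0.039 with a library left out. Of 492 values for 41 named genes, 437 kept sign and side of the threshold, 34 lost a call, 11 gained one and 10 changed sign. The cause of these changes was not tested. Leave-outs have fewer samples, and the fit without the filter tests more genes.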
